A study of Mus musculus with 24 samples.

Results

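Mm016 and Mm157 are 2 of the 120 mouse probes on Sterolgene V1, a small 2-colour array for genes of drug and sterol metabolism. They were chosen from their log2 ratios in wild-type liver, where they were moderately higher after phenobarbital. The wild-type ratios are therefore a description here and carry no test, while the 3 receptor-deficient genotypes were not used in the choice. Of the 120 probes, 80 were bright enough to be tested, and both members are among these 80. The sources used here pair neither probe with a gene or a sequence, so both are given by number, and the label could not be checked against marker genes of liver.

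Livers came from male C57BL/6J mice in 4 groups: wild type (WT), CAR-deficient, PXR-deficient and CAR/PXR-deficient, the last lacking both receptors. Treated mice received 100 mg/kg phenobarbital intraperitoneally, and their livers were taken after 12 h. Mice for the reference received the vehicle, 5% DMSO in corn oil, for the same time. Every group had 6 arrays, and on each the treated liver RNA carried Cy5 and the reference carried Cy3. That reference pooled the RNA of 6 vehicle livers from mice of the matching genotype. The labels give an age of 9 to 12 weeks for the deficient mice and none for WT. One tag is at odds with the rest: the pool channel of WT replicate 1 is tagged as phenobarbital, although its source name and protocol give the vehicle pool. It was read as the pool. Whether each replicate is a different mouse is not in the labels, so the p-values rest on a spread between samples that may be technical.

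CAR and PXR are nuclear receptors that sense foreign compounds in the liver and switch on genes for oxidation, conjugation and export. Phenobarbital is a classical activator of CAR in mice and acts on it without needing to bind it, whereas PXR is activated by many chemically diverse ligands. Several target genes have response elements that both receptors can bind, and both receptors also touch cholesterol and bile acid metabolism. The deficient mice thus ask which receptor a given rise needs.

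Both probes gave unflagged spots, though some pool readings stood close to local background. All 144 spots of the pair, 3 copies on each of 24 arrays, were unflagged and had 0 saturated pixels, and both channels lay above local background on all 24 arrays. The margin was smallest in the pool channel of WT replicate 5. There the lowest copy exceeded background by 2.99 background SDs for Mm016 and 2.71 for Mm157, against a detection cut of 2 SD. After local background subtraction, Mm016 ran from 615 to 16394 intensity units in the treated channel and from 946 to 7380 in the pool channel. Mm157 ran from 957 to 14288 in the treated channel and from 887 to 11555 in the pool channel. The SD between the 3 copies of a probe on one array had a median of 0.11 on the log2 scale for Mm016 and 0.086 for Mm157. One array stood out: on CAR/PXR-deficient replicate 2 the Mm016 copies read 0.99, -0.17 and 1.48. PXR-deficient replicates 1 and 2 differed over the probes by 1.02 times the variance that replicate spots give, so they agree within spot noise and were averaged and counted as 1 sample, which leaves 23 samples. WT replicates 2 and 6 came next at 1.75 times. The position on a slide was inferred from the median Y coordinate of an array's spots, and arrays above 25000 are called upper here. Of the 24 arrays, 14 were upper and 10 lower, with 5 and 1 of the WT arrays. Which end of a slide these names stand for is not known.

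Phenobarbital was followed by a higher Mm016 signal in WT, PXR-deficient and CAR/PXR-deficient liver, and by a smaller difference in CAR-deficient liver that did not pass the test. All values below are log2 ratios of treated liver over vehicle pool after loess normalization, so a value of 1 is a 2-fold ratio. Treated RNA carried Cy5 on every array. A dye effect particular to a probe, which loess may leave, thus cannot be told apart from a response in a test against 0. In WT, Mm016 read 0.74, 0.53, 0.93, 0.85, 0.41 and 0.64 in replicates 1 to 6. Every WT sample lay above 0, with a mean of 0.68 ± 0.20 (SD, n = 6), or 1.61-fold. This placed it in position 8 of the 80 tested probes in WT. The probe above it in that order was Mm050 at 0.75 ± 0.39 and the one below was Mm155 at 0.56 ± 0.36 (n = 6 each). Of all tested probes, 25% were called in WT and 15% were called higher, shares from which nothing is read here because the choice used that contrast.

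**Figure D1:**
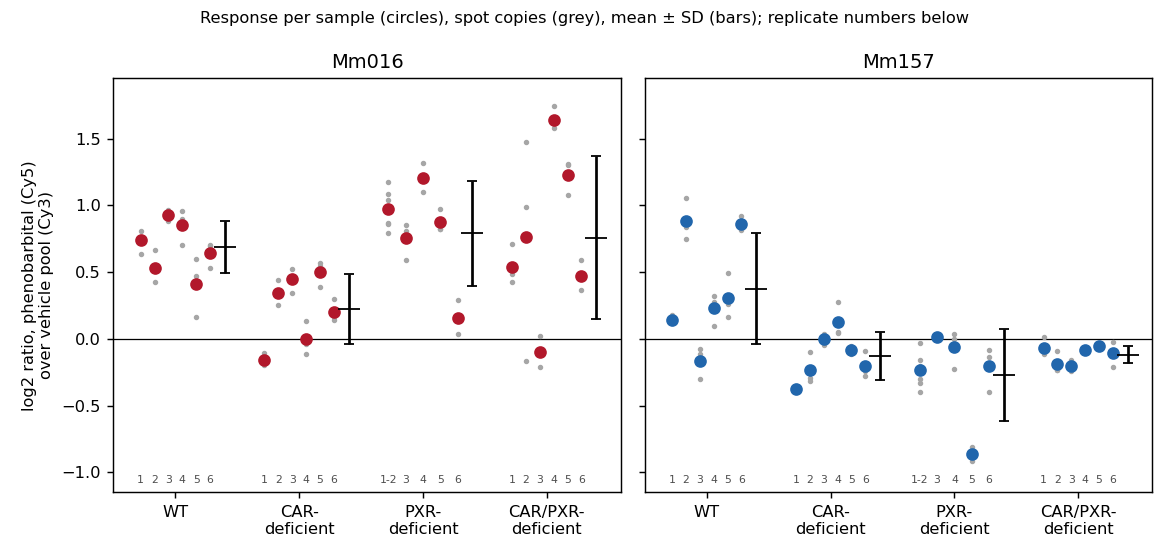
The plots show the log2 ratio of phenobarbital-treated liver over the vehicle pool (y axis) for Mm016 and Mm157 in the 4 genotypes (x axis). Circles are samples, grey dots the spot copies, and bars the mean ± SD; Mm016 lies above 0 in all 6 WT samples, and Mm157 lies below 0 in all 6 CAR/PXR-deficient samples.

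In PXR-deficient liver Mm016 read 0.97 in the averaged replicates 1 and 2, and 0.75, 1.21, 0.87 and 0.15 in replicates 3 to 6. All 5 samples were above 0, replicate 6 only slightly. The mean of 0.79 ± 0.39 (SD, n = 5; SE 0.17), or 1.73-fold, passed the test in the limma fit over all probes (adjusted p = 0.000709). In the same comparison 32.5% of the 80 probes passed and 20% passed as higher. Mm016 stood in position 7 of 80.

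In CAR/PXR-deficient liver the mean was similar and the spread wider. Mm016 read 0.54, 0.77, -0.10, 1.64, 1.23 and 0.47 in replicates 1 to 6. Thus 5 of 6 samples were above 0, from a 0.94-fold ratio in replicate 3 to a 3.12-fold ratio in replicate 4. The mean of 0.76 ± 0.61 (SD, n = 6; SE 0.16), or 1.69-fold, passed the limma test (adjusted p = 0.000867). The shared estimate of the spread makes this SE narrower than these 6 samples alone give: fitted alone, the SE was 0.21 and the limma adjusted p was 0.0486. In the shared fit 33.8% of the 80 probes passed and 16.2% passed as higher. Mm016 stood in position 3 of 80. On the upper arrays alone the mean was 0.56 ± 0.66 (n = 3) and no longer passed (adjusted p = 0.0815), while on the lower arrays it was 0.96 ± 0.61 (n = 3; adjusted p = 0.0410). The PXR-deficient mean was 0.88 on 3 upper and 0.76 on 3 lower arrays (limma adjusted p = 0.00514 and 0.0496).

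In CAR-deficient liver Mm016 read -0.16, 0.35, 0.45, -0.0046, 0.50 and 0.20 in replicates 1 to 6. Samples at and below 0 stood beside samples that overlapped the lower WT values. The mean was 0.22 ± 0.26 (SD, n = 6; SE 0.16, limma adjusted p = 0.480), or 1.17-fold, with a 95% interval of -0.10 to 0.54. Mm016 stood in position 9 of 78 there, and in position 17 of 78 with median centring. The probes next to it in the WT order had means of similar size here, 0.22 for Mm050 and 0.20 for Mm155. In the shared fit limma called 0 of 78 probes in this genotype, a share of 0%, with 12 at an unadjusted p under 0.05. That count depended on the setting: 18 probes passed with the genotype fitted alone, 16 with scale normalization, 14 with array weights and 11 in the median-centred value table, and Mm016 passed in none of these 4. Centring on the calibration spike-ins raised the mean to 0.83 and the authors' value table gave 0.93, both past the threshold (adjusted p = 0.00530 and 0.00718). Under those scalings 54 of 78 and 35 of 79 probes passed. The median of all tested probes also stood at 0.65 and 0.61, so relative to that median Mm016 was at 0.18 and 0.32.

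The 3 deficient genotypes were then compared with each other, which removes a dye effect common to all arrays. The PXR-deficient response of Mm016 exceeded the CAR-deficient one by 0.57 (SE 0.23), with a 95% interval of 0.093 to 1.05, and did not pass after adjustment (limma adjusted p = 0.0873; 19.2% of 78 probes passed). The CAR/PXR-deficient response exceeded the CAR-deficient one by 0.54 (SE 0.22; interval 0.082 to 0.99; limma adjusted p = 0.118; 7.69% of 78 probes passed). Each of these is a single comparison whose unadjusted interval lies above 0. The first passed in 6 of 21 other settings, among them all 24 arrays counted (limma adjusted p = 0.0429) and the fit of these 2 genotypes alone (0.0281). The fit of 24 arrays counts PXR-deficient replicates 1 and 2 as separate samples. The first difference did not pass with scale normalization (limma adjusted p = 0.457), print-tip loess (0.197) or in the authors' value table (0.832). In 1 of 11 fits without 1 sample the first passed, without PXR-deficient replicate 6, at a difference of 0.73 (limma adjusted p = 0.0241). The second passed in 1 of 12 such fits, without CAR/PXR-deficient replicate 3, at 0.71 (limma adjusted p = 0.0405). Each of these was the lowest sample of the higher group, so leaving it out must raise the difference. Nothing is read from these passes. Between CAR/PXR-deficient and PXR-deficient liver the difference was -0.033 (SE 0.23, limma adjusted p = 0.928), with an interval of -0.51 to 0.44; here 32.5% of 80 probes passed. Set against WT, and with no test, the Mm016 means differed by -0.46 in CAR-deficient, 0.11 in PXR-deficient and 0.073 in CAR/PXR-deficient liver.

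**Figure D2:**
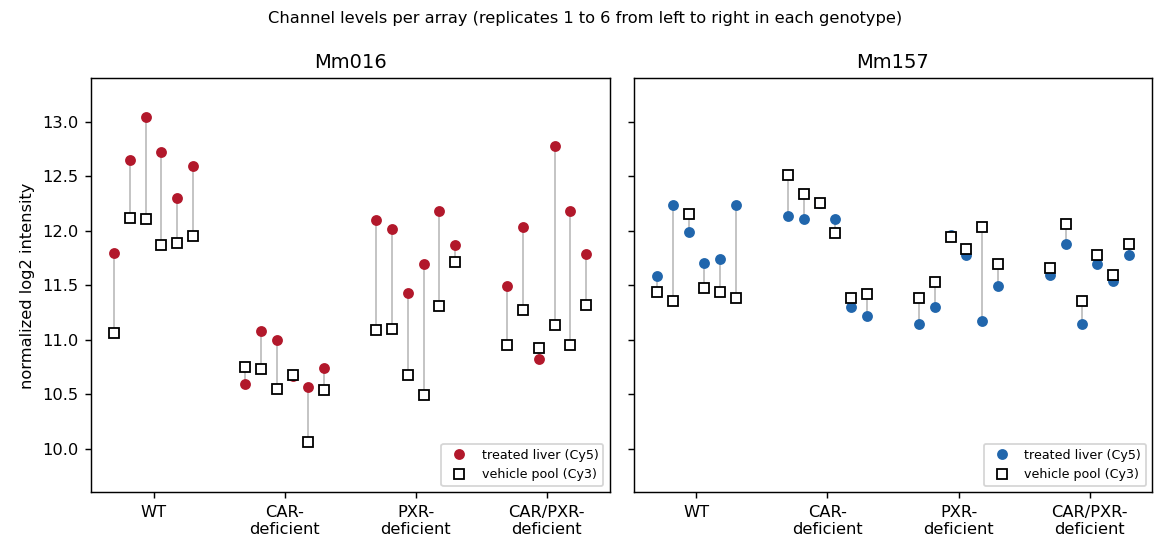
The plots show the normalized log2 intensity (y axis) of Mm016 and Mm157 on each array by genotype (x axis), with circles for treated liver (Cy5), squares for the vehicle pool (Cy3) and a line joining the 2 channels of an array. The means of both channels of Mm016 are lowest in CAR-deficient liver, while the channels of Mm157 overlap between genotypes.

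The levels of the 2 channels showed a pattern that the ratio does not carry. These levels are normalized log2 intensities after loess and between-array quantile normalization of the average intensity, and they compare one probe across arrays. Arrays of different genotypes share no reference RNA. In the tests below a difference between arrays cannot be told apart from one between genotypes. Readings of the PXR-deficient pool alone ran from 10.49 to 11.72 for Mm016. In treated liver Mm016 had a mean level of 12.52 ± 0.43 in WT (n = 6), 11.85 ± 0.30 in PXR-deficient (n = 5), 11.85 ± 0.66 in CAR/PXR-deficient (n = 6) and 10.77 ± 0.22 in CAR-deficient liver (n = 6). The CAR-deficient samples ran from 10.56 to 11.08 and the PXR-deficient ones from 11.43 to 12.18, so these groups did not overlap. Their difference of 1.07 gave p = 0.00216 in an exact two-sided permutation test, the smallest these group sizes allow, and an adjusted p of 0.0130 over the 6 such tests. CAR/PXR-deficient liver was above CAR-deficient liver by 1.08 (exact permutation p = 0.00649, adjusted p = 0.0195), with ranges that overlapped because replicate 3 lay at 10.83. Between CAR/PXR-deficient and PXR-deficient liver the treated levels differed by 0.0034 (exact permutation adjusted p = 0.989). These tests covered only Mm016 and Mm157. The share of all tested probes whose levels separate or pass in this way was not worked out. Nothing particular to Mm016 is therefore read from the missing overlap or from these passes.

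The vehicle pools of Mm016 were also lowest in CAR-deficient and highest in WT arrays. The pool level was 11.83 in WT, 11.06 in PXR-deficient, 11.09 in CAR/PXR-deficient and 10.55 in CAR-deficient arrays, each a mean over 6 arrays with SDs of 0.39, 0.44, 0.17 and 0.26. Because each genotype had 1 pool, these SDs describe repeated readings of the same RNA and not vehicle mice, and no test was made. The treated-level gap of 1.07 between PXR-deficient and CAR-deficient liver thus stood beside a pool gap of 0.51 in the same direction. A difference between genotypes in the response and one in the single pool it is read against cannot be told apart. In bulk liver RNA, fewer cells of a type and less RNA per cell cannot be told apart either.

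Mm157 was higher after phenobarbital in 5 of 6 WT samples, passed the test in no deficient genotype, and had a WT mean that leaned on 2 nearly alike arrays. In WT it read 0.14, 0.88, -0.16, 0.23, 0.31 and 0.86 in replicates 1 to 6. Replicates 2 and 6 stood far above the other 4, and replicate 3 lay below 0. The mean was 0.38 ± 0.42 (SD, n = 6), or 1.30-fold, in position 13 of 80. Its neighbours in the WT order were Mm102 at 0.40 ± 0.28 (n = 6) above and Mm068 at 0.31 ± 0.24 (n = 4) below. With replicates 2 and 6 left out the mean was 0.13, and with these 2 averaged to 1 sample it was 0.28. For Mm016 the same omission gave 0.73 against 0.68.

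Mm157 had mean log2 ratios slightly below 0 in the deficient genotypes, and none passed the test. In the same fit 0 of 78 probes passed in CAR-deficient liver. The shares were 32.5% of 80 probes in PXR-deficient and 33.8% of 80 in CAR/PXR-deficient liver. In CAR-deficient liver it read -0.38, -0.23, 0.0024, 0.13, -0.082 and -0.20 in replicates 1 to 6. The samples lay on both sides of 0, with a mean of -0.13 ± 0.18 (n = 6; SE 0.11, limma adjusted p = 0.563) and a 95% interval of -0.37 to 0.11. In CAR/PXR-deficient liver it read -0.065, -0.19, -0.21, -0.087, -0.055 and -0.11. All 6 were just below 0 within a narrow band, with a mean of -0.12 ± 0.064 (n = 6; SE 0.11, limma adjusted p = 0.464) and an interval of -0.36 to 0.12. The fit shares 1 estimate of the spread per probe over the genotypes, so this SE is wider than the SD of these 6 samples alone would give. Fitted alone, this genotype gave a limma adjusted p of 0.216.

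In PXR-deficient liver Mm157 read -0.24 in the averaged replicates 1 and 2, and 0.011, -0.063, -0.86 and -0.21 in replicates 3 to 6. Replicate 5 stood far below the rest, whose values lay close to 0. The mean was -0.27 ± 0.35 (n = 5; SE 0.13), or 0.829-fold, with an interval of -0.53 to -0.011 and no pass after adjustment (limma adjusted p = 0.0925; 12.5% of 80 probes passed as lower). Without replicate 5 the mean was -0.12. The sign of Mm157 in the deficient genotypes also depended on the scaling: centring on the calibration spike-ins gave 0.64, 0.62 and 1.10 in CAR-, PXR- and CAR/PXR-deficient liver, all past the threshold (limma adjusted p = 0.0149, 0.0446 and 4.38e-05). Under that scaling 54 of 78, 25 of 80 and 74 of 80 probes passed in these genotypes. The median of all tested probes stood at 0.65, 0.35 and 1.12 there, so relative to it Mm157 was at -0.010, 0.28 and -0.027.

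The Mm157 responses of the deficient genotypes did not differ past the threshold. In the comparisons below 19.2% of 78, 32.5% of 80 and 7.69% of 78 probes passed, in that order. PXR-deficient minus CAR-deficient was -0.14 (SE 0.17; interval -0.50 to 0.21; limma adjusted p = 0.666). CAR/PXR-deficient minus PXR-deficient was 0.15 (SE 0.17; interval -0.20 to 0.51; limma adjusted p = 0.540). CAR/PXR-deficient minus CAR-deficient was 0.010 (SE 0.16; interval -0.33 to 0.35; limma adjusted p = 0.975). Set against WT, and with no test, the means were lower by log2 differences of -0.50, -0.65 and -0.49 in CAR-, PXR- and CAR/PXR-deficient liver.

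The channel levels of Mm157 varied less between genotypes than those of Mm016. Treated liver had 11.92 ± 0.28 in WT, 11.85 ± 0.46 in CAR-deficient, 11.52 ± 0.34 in PXR-deficient (n = 5) and 11.60 ± 0.26 in CAR/PXR-deficient liver (n = 6 in the others). The pools had 11.54, 11.98, 11.74 and 11.72 in the same order. The genotype means thus spanned 0.39 in treated liver and 0.44 in the pools, against 1.75 and 1.28 for Mm016. None of the 3 comparisons of treated levels between deficient genotypes passed an exact two-sided permutation test (adjusted p = 0.399, 0.792 and 0.399). Within WT, replicates 2 and 6 had the highest treated levels, both at 12.24, while their pool readings of 11.36 and 11.38 were close to those of replicates 1, 4 and 5. In replicate 3, the sample below 0, the pool read 12.16 against 11.36 to 11.47 on the other 5 WT arrays.

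**Figure D3:**
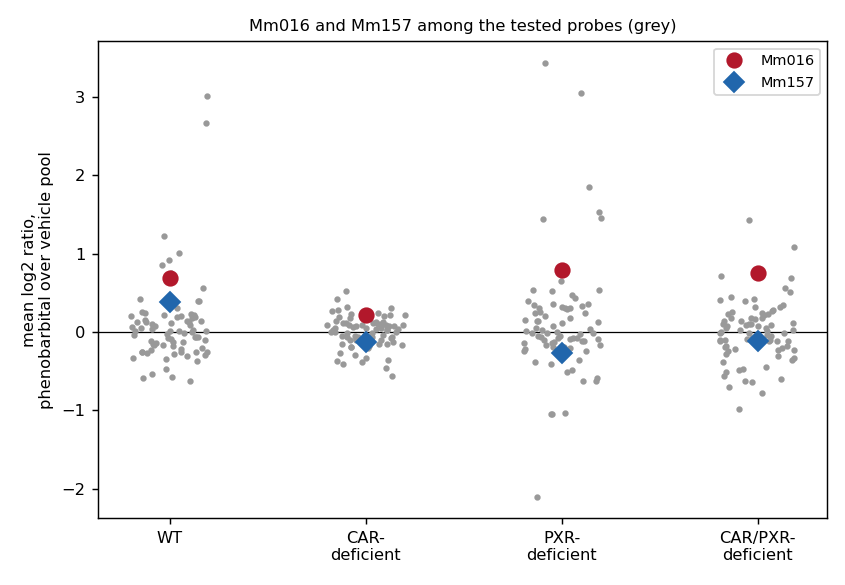
The plot shows the mean log2 ratio of phenobarbital-treated liver over the vehicle pool (y axis) for every tested probe in the 4 genotypes (x axis), with Mm016 as circles, Mm157 as diamonds and the other probes in grey. Mm016 stands among the higher probes in all 4 genotypes, with its smallest mean in CAR-deficient liver. Mm157 lies among the bulk in the 3 deficient genotypes.

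Across samples the ratios of the 2 probes did not run together. Over the 23 samples their log2 ratios had a Pearson r of 0.013 and a Spearman rho of 0.13, and within genotypes the r was -0.032. These values are a description, since samples of a genotype share a pool. Mm016 exceeded Mm157 by 0.31 ± 0.56 in WT (4 of 6 samples), 0.35 ± 0.27 in CAR-deficient (5 of 6), 1.06 ± 0.53 in PXR-deficient (5 of 5) and 0.88 ± 0.57 in CAR/PXR-deficient liver (6 of 6).

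Other probes followed each member more closely across samples. For Mm016 the highest Pearson r among 78 candidate probes were 0.56 for Mm088 (19 samples), 0.52 for Mm037 (23 samples) and 0.50 for Mm054 (22 samples). Mm037 had mean log2 ratios of 0.92 in WT, 0.24 in CAR-deficient, 1.52 in PXR-deficient and 0.41 in CAR/PXR-deficient liver. Mm088 and Mm054 were highest in CAR/PXR-deficient liver, at 0.51 and 1.09. For Mm157 the highest were 0.72 for Mm150 (23 samples), 0.69 for Mm102 (23 samples) and 0.66 for Mm144 (13 samples). Mm150 and Mm102 had their lowest means in PXR-deficient liver, at -1.04 and -0.63, where Mm157 was lowest too. Mm144 was lowest in CAR-deficient liver, at -0.086, against 0.053 in PXR-deficient liver. All were picked by r over these same samples, genotype differences included, so a shared lowest genotype is no separate result. Rank correlations were lower for most of these, with rho of 0.19 for Mm088 and 0.29 for Mm144.

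**Figure D4:**
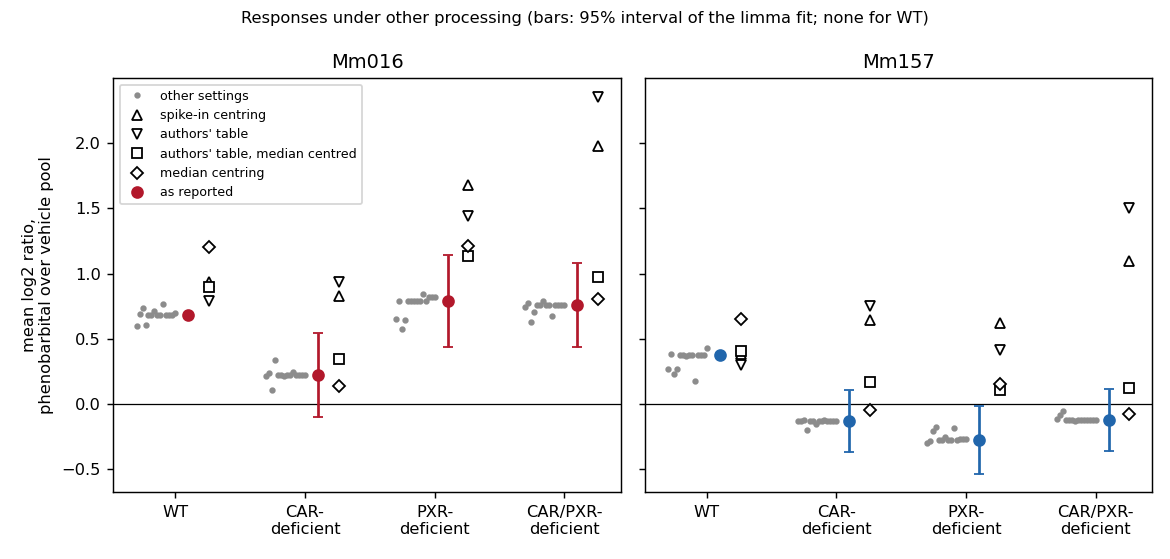
The plots show the mean log2 ratio of Mm016 and Mm157 (y axis) in the 4 genotypes (x axis) as reported (coloured, with the 95% interval of the limma fit, none for WT) and under alternative settings (grey and open symbols). Mm016 stays above 0 throughout, from 0.11 to 2.35, while Mm157 changes sign in each deficient genotype.

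Sizes, and in some settings the order of the genotypes, depended on how the dyes were balanced. With each array centred on its median in place of loess, Mm016 had a mean of 1.20 in WT, 0.14 in CAR-deficient, 1.21 in PXR-deficient and 0.81 in CAR/PXR-deficient liver. The order with CAR-deficient liver lowest was kept, and the PXR-deficient minus CAR-deficient difference passed at 1.07 (limma adjusted p = 0.00410). In the authors' value table with each array centred on its median, Mm016 had 0.89, 0.35, 1.14 and 0.98 in the same order, and Mm157 had 0.41, 0.17, 0.11 and 0.12. Mm016 was lowest in CAR-deficient liver there too, and Mm157 was highest in WT.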

How the data were processed

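Each array file holds, per the file headers, the mean and median pixel intensity of every spot in both channels, the local background intensity and its SD, the saturated percent of its pixels, and a spot flag of 0, -50 or -100. The sources used here name no scanner, software or rule for the flags. The authors deposited a value table of log2 ratios, whose columns correlated with the scanner log2 Cy5/Cy3 at 0.79 to 0.99; its centring is unknown, and its array medians ran from -0.43 to 2.95.

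Mean intensities were corrected with normexp (offset 50) and normalized by loess over unflagged mouse probe spots, flagged spots were dropped and copies averaged. A probe was tested if at least 2 of its spots exceeded background by 2 SD in either channel on at least 12 arrays. One group-means limma fit covered all samples (R 4.3.3, limma 3.58.1; figures with Python 3.11.15 and matplotlib 3.10.9), with Benjamini-Hochberg adjustment per comparison at 0.05. The fit was also run on simulated independent noise, with the same spread for a probe in every genotype and no shared pool. That run therefore cannot speak to the shared pools or to spreads that differ between genotypes. Treated-channel levels used loess and Aquantile normalization and exact permutation tests. Alternatives covered background correction, normalization, flags, filters, weights, blocks and left-out replicates. A response test leaves out the spread of vehicle mice, as 1 pool serves each genotype. The number of arrays limits the precision.

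The members and lists were chosen with earlier results of these data known. The rule for naming took both members, their WT neighbours, and the 3 probes with the highest Pearson r over at least 12 shared samples. Lists of marker and pathway genes could not be applied because probes are unnamed. Same-numbered arrays of different genotypes correlated in their deviations at -0.52 to 0.68 (median 0.015), so replicate numbers were not taken as pairs.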

Additional observations from a re-analysis of the deposited data

Results flagged for a closer look

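In 24 sets of 5 or 6 values (the log2 ratio, treated level and pool level of both probes in 4 genotypes) 4 had a value far from the rest by Dixon's criterion at 95%, which chance gives in about 1 of 20. The Mm157 log2 ratio of PXR-deficient replicate 5 was -0.863, with the nearest sample at -0.236. The Mm016 pool level on WT replicate 1 was 11.06, with the nearest array at 11.87. The Mm016 pool level on CAR-deficient replicate 5 was 10.07, with the nearest at 10.54. The Mm157 pool level on WT replicate 3 was 12.16, with the nearest at 11.47. The last 3 are readings of 1 pool each on 6 arrays, so they describe arrays and not animals.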

How the results depend on the processing

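The settings for slide position, further averaging and left-out pairs of arrays were chosen after seeing the data. The Mm016 rise in PXR-deficient liver passed in 21 of 21 other settings (0.58 to 1.67) and in 5 of 5 fits without 1 sample. That in CAR/PXR-deficient liver failed only on the upper arrays alone (0.56) and otherwise ran up to 2.35. The WT mean of Mm016 moved to 1.20 with median centring, 0.94 with spike-in centring and 0.89 in the median-centred value table, and that of Mm157 to 0.86 on the 1 lower array. The Mm016 response in CAR-deficient liver passed with spike-in centring (0.83) and in the value table (0.93), where 54 of 78 and 35 of 79 probes passed.

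The PXR-deficient minus CAR-deficient difference of Mm016 passed at 0.60 with all 24 arrays counted, at 0.60 with the replicate block (adjusted p = 0.0370), at 0.59 with array weights, at 0.57 with these genotypes alone, at 0.79 in the median-centred table and at 1.07 with median centring. Over its 21 settings the adjusted p ran from 0.00410 to 0.832. Both of the first 2 fits count 24 arrays, and against the fit of 24 arrays without it the block changed no call of the 2 probes. It moved the probes called from 20 to 23 for that comparison and from 7 to 12 for CAR/PXR-deficient minus CAR-deficient, and 3 of 24 arrays correlated best with their own number. The latter difference of Mm016 passed at 1.15 with spike-in centring and 1.42 in the value table (adjusted p from 0.0159 to 0.621 over all settings).

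For Mm157 the responses in CAR-, PXR- and CAR/PXR-deficient liver turned to 0.64, 0.62 and 1.10 with spike-in centring, to 0.75, 0.42 and 1.5 in the value table, and to 0.17, 0.11 and 0.12 in its median-centred form. The PXR-deficient one turned to 0.16 with median centring, and the CAR/PXR-deficient one to 0.69 with spike-in centring and its replicates 1 and 2 left out. Its difference PXR-deficient minus CAR-deficient turned to 0.20 with median centring and 0.028 with scale normalization. CAR/PXR-deficient minus PXR-deficient was -0.23 with median centring and 1.08 in the value table, where it was among 37 of 80 probes that passed. CAR/PXR-deficient minus CAR-deficient was -0.0060 with array weights, -0.028 with median centring, -0.046 in the median-centred table and -0.023 on the lower arrays. Its treated level for that pair turned to 0.48 without normalization between arrays.

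The near-zero CAR/PXR-deficient minus PXR-deficient difference of Mm016 turned positive at 0.092 without background correction, 0.049 with print-tip loess, 0.30 with spike-in centring, 0.066 with scale normalization, 0.91 in the value table, 0.00041 with the median of copies, 0.20 on the lower arrays, 0.014 with further alike arrays averaged and 0.020 without replicates 1 and 2 of CAR/PXR-deficient liver. The treated level for that pair was -0.032 with all 24 arrays.

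Differences from WT moved too. For Mm016, CAR-deficient was -1.06 with median centring, -0.11 with spike-in centring and 0.15 in the value table, and PXR-deficient was -0.16 with print-tip loess, 0.74 with spike-in centring and 0.66 in the table. CAR/PXR-deficient was -0.39 with median centring, 1.04 with spike-in centring, 1.56 in the table, -0.14 on upper and 0.31 on lower arrays, and 0.67 with spike-in centring without its replicates 1 and 2. For Mm157, spike-in centring gave 0.26, 0.24 and 0.71, the table gave 0.46, 0.12 and 1.20, the lower arrays gave -0.97 and -0.99 for CAR- and CAR/PXR-deficient, and the last was 0.30 with spike-in centring without replicates 1 and 2.

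Without 1 sample, Mm016 ranged from -0.21 to 0.14 for CAR/PXR-deficient minus PXR-deficient, from 0.47 to 0.73 for PXR-deficient minus CAR-deficient and from 0.36 to 0.71 for CAR/PXR-deficient minus CAR-deficient. Mm157 ranged from -0.21 to 0.0051 for PXR-deficient minus CAR-deficient and from -0.040 to 0.061 for CAR/PXR-deficient minus CAR-deficient. The treated level for CAR/PXR-deficient minus PXR-deficient ranged from -0.18 to 0.21 for Mm016 and from -0.0075 to 0.19 for Mm157. The probes called ranged over the other settings from 3 to 24 in WT, 0 to 54 in CAR-deficient, 12 to 33 in PXR-deficient and 4 to 74 in CAR/PXR-deficient liver. They ranged from 3 to 24, 12 to 37 and 0 to 17 for PXR-deficient minus CAR-deficient, CAR/PXR-deficient minus PXR-deficient and CAR/PXR-deficient minus CAR-deficient. Why these values moved was not tested.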
